A study of Mus musculus with 15 samples.

Results

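Of the 23235 genes in the RNA-seq table, 48 encode general splicing factors or heterogeneous nuclear ribonucleoproteins (hnRNPs), taken by symbol as every gene whose name starts with Srsf, Hnrnp, Sf3 or Snrp, other than *Snrpn*. The rule uses names and no measured value, but the set was chosen with earlier results of these data known. They comprise 11 SR proteins, 18 hnRNPs (5 of the A/B class, 1 C, 1 D, 4 F/H and 7 of the K, L, M, R and U classes), 8 subunits of SF3A and SF3B, 7 proteins of the Sm core and 4 further proteins of the U1 and U2 particles. The study asked what the loss of *116HG*, the spliced host transcript left after the *Snord116* small nucleolar RNAs are processed at the Prader-Willi locus, does to transcripts in brain. Here that question is put to the genes of the splicing machinery.

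Splicing removes introns from pre-mRNA in the spliceosome, which is built from small nuclear ribonucleoprotein particles (snRNPs). Each of the U1, U2, U4 and U5 snRNPs holds a ring of Sm proteins around its RNA. SF3A and SF3B are parts of the U2 particle that help it bind the branch point, SR proteins bind exons and promote the choice of nearby splice sites, and hnRNPs coat nascent RNA and often oppose or tune that choice. Several SR and hnRNP genes also hold ultraconserved alternative exons through which their own protein lowers its level, so their transcripts are known to respond to the state of the splicing machinery. Brain is known for its many alternatively spliced transcripts.

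RNA-seq was made from the cortex of adult male mice. WT mice were C57BL/6J, and *Snord116del* mice carried the B6(Cg)-Snord116tm1.1Uta/J deletion on the paternal allele as heterozygotes, bred as littermates from deletion males and wild-type females. At 6 hours after lights on (Zt +6) 3 WT and 2 *Snord116del* mice were used, and at 16 hours (Zt +16), in the dark, 2 of each. ChIRP-seq, in which biotinylated oligos against an RNA pull down the chromatin it is bound to, was made from 1 hemisphere of adult brain per library. Oligos against *116HG* were used on WT brain in 2 replicates and on *Snord116del* brain once, and non-specific control (NSC) oligos once on each genotype. All cells of the mice lack the paternal copy, so the groups do not separate an effect in a given cell type, and the cortex is a mixture of cell types.

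The table holds 1 FPKM value (fragments per kilobase of transcript scaled to the size of the library) per group and gene, so the spread between mice is not seen, and no SD, n-based error or test can be given. It holds no counts, so the reads behind a value are not seen. Read totals per mouse are given in the study's methods, and by these the *Snord116del* mice at Zt +6 were the least deeply sequenced. A gene was counted as higher or lower where FPKM + 1 differed by at least 1.5-fold, which is 0.58 on the log2 scale, with at least 1 FPKM in the higher group. All differences below are on the log2(FPKM + 1) scale, which understates the change of low genes. Where a pair of values is given for a time, WT comes first. Genes averaging under 1 FPKM were left out, which kept 10297 genes, among them all 48 splicing genes. The groups as a whole differed: the median tested gene had 3.17 FPKM at Zt +6 in WT and 5.63 in the deletion, against 2.90 and 4.00 at Zt +16, and the 100 most abundant genes held 35.7%, 22.5%, 44.1% and 46.5% of the summed FPKM in that order. The deleted *Snord116* is listed at 0 in all 4 groups, so its level does not check the genotype labels. The labels give both *Snord116del* mice and 1 of the 3 WT mice at Zt +6 an earlier version of the table than the other 6 mice. Whether that marks a batch is not stated, and at Zt +6 it cannot be told apart from genotype in group values. The Zt +6 difference between genotypes and the Zt +16 against Zt +6 difference within a genotype share groups, so their values are given side by side without a correlation.

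Promoters are shown for 2 genes at opposite ends of the results, *Srsf6*, with the largest positive difference at Zt +6, and *Snrpg*, with the largest negative one. They come from RefSeq on GRCm38.p6, the 250 bases before the start site, read on the strand of the gene, with matches on either strand in capitals. The letters searched were CCGGAAG for the ETS core, CCAAT for the box of that name, GGGCGG for the GC box and TATAAA for the TATA box. Overlapping matches would run together.
*Srsf6*, chr2:162931258-162931507, plus strand: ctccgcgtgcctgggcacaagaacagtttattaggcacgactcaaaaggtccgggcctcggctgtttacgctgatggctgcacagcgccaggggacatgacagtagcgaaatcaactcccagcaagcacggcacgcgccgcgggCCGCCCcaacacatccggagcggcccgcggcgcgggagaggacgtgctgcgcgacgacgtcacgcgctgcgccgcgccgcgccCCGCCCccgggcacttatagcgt
*Snrpg*, chr6:86371290-86371539, plus strand: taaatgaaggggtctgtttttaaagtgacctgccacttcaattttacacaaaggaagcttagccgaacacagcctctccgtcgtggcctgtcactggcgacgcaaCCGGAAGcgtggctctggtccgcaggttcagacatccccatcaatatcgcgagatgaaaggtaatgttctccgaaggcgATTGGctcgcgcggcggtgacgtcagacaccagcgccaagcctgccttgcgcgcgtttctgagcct
The *Srsf6* stretch holds GC boxes only, and the *Snrpg* stretch holds an ETS core and a CCAAT box only. Of the 48 genes, 43 had a promoter in the RefSeq table, counting the 50 bases after the start as well. CCGGAAG was in 34.9% of these 43, in 19.7% of 7363 tested genes and in 8.86% of all 32851 promoters. CCAAT was in 51.2%, 43.4% and 37.4%, GGGCGG in 72.1%, 71.3% and 35.7%, and TATAAA in 14.0%, 8.43% and 13.6%. These are matches of letters and not sites of binding.

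In WT cortex at Zt +6 the levels of the 48 genes ran from 1.55 FPKM for *Snrpf*, the F protein of the Sm ring, to 189.9 FPKM for *Snrpg*, the G protein of the same ring. FPKM is per length, so levels of different genes are set side by side here, with limits given below. Differences between the groups went with transcript length, and several of the genes, *Snrpg* among them, share sequence with copies elsewhere. The Sm core had a median of 19.6 FPKM in that group, the K to U class hnRNPs 17.8, the A/B class 14.6 and the F/H class 12.5. The SR proteins had 6.33, SF3A and SF3B 4.57, and the U1 and U2 particle proteins 4.36. Across the groups, 27 of the 48 genes were highest in *Snord116del* at Zt +6 and the other 21 in *Snord116del* at Zt +16. None was highest in either WT group. These orders are of the values as deposited, where the median tested gene was also higher in *Snord116del* at both times. The same count over all tested genes was not made. Scaled to the same median, the absence of genes highest in WT did not hold. Several were then highest in WT at Zt +16, *Hnrnpf*, *Hnrnpc*, *Hnrnpk* and *Hnrnpl* among them, and *Srsf12* in WT at Zt +6. For *Hnrnpl* on that scale, WT at Zt +16 stood 0.43 above WT at Zt +6. Its difference of *Snord116del* from WT was -0.40 at Zt +6 and -0.32 at Zt +16. As deposited, the lowest group was WT at Zt +6 for 20 genes, WT at Zt +16 for 18 and *Snord116del* at Zt +6 for 10.

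**Figure D1:**
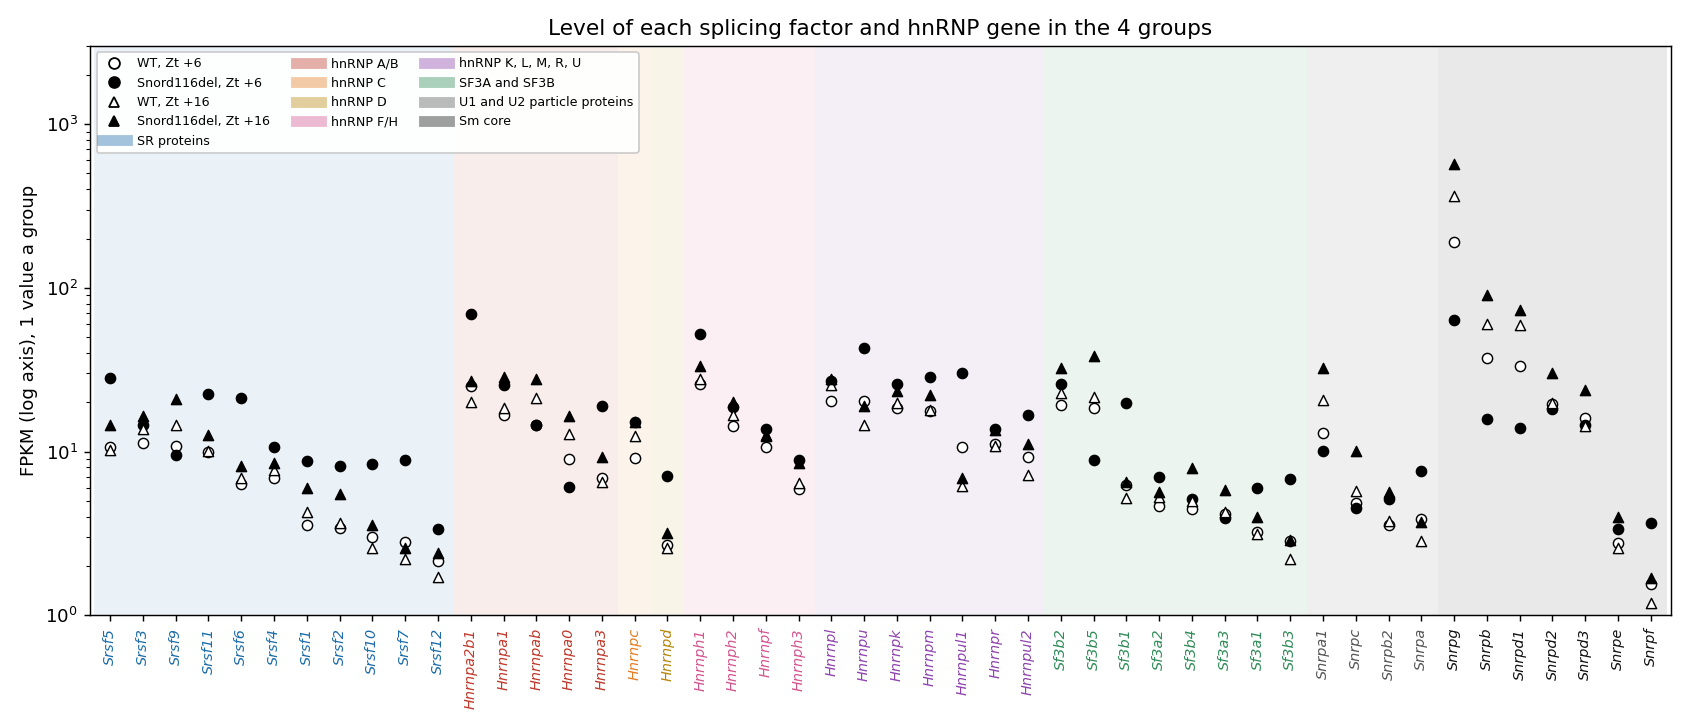
FPKM (log axis) of each of the 48 genes, ordered by role and mean level, with 1 point per group (circles Zt +6, triangles Zt +16, open WT, filled *Snord116del*). Most filled circles of the SR and hnRNP genes stand above the other points, while for *Snrpg*, *Snrpb* and *Snrpd1* the filled circle is the lowest point.

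In *Snord116del* against WT cortex at Zt +6, 21 of the 48 genes were higher and 4 were lower. Over all tested genes 49.3% were higher and 7.62% lower, so that the shares of the splicing genes, 43.8% and 8.33%, were near the background. Their median difference was 0.51, against 0.57 over all tested genes. The scale of the groups moved these counts. When the groups were scaled to the same median, 5 of the 48 were higher and 12 lower, with 15% and 24.4% of all tested genes, and the median of the 48 became -0.21. With quantile normalization 11 were higher and 10 lower, with 20.7% and 21% of all tested genes. In bulk tissue, fewer cells of a type and less RNA per cell cannot be told apart.

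As deposited, the roles did not share a direction. The counts stand beside 49.3% higher and 7.62% lower over all tested genes, with a median of 0.57. Of the 11 SR proteins 7 (63.6%) were higher and none lower, with a median of 1.10. Of the 7 Sm core proteins 1 (14.3%) was higher and 3 (42.9%) were lower, with a median of -0.13. The K to U class hnRNPs had 4 of 7 higher, SF3A and SF3B 3 higher and 1 lower of 8, the A/B class 2 of 5 higher, the F/H class 1 of 4 higher and the U1 and U2 particle proteins 1 of 4 higher. After scaling to the same median, the SR proteins kept a median above 0 (0.36, 2 higher and 1 lower). The Sm core then stood at -0.91 with 5 of 7 lower. On that scale 15% of all tested genes were higher and 24.4% lower, with a median of -0.06. No difference between roles was tested, since each group has 1 value per gene. The roles also differed in transcript length, with a median of 613 bases for the Sm core and 2566 for the SR proteins. With the trend in length taken out, as given below, no gene of any role passed the rule as lower.

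**Figure D2:**
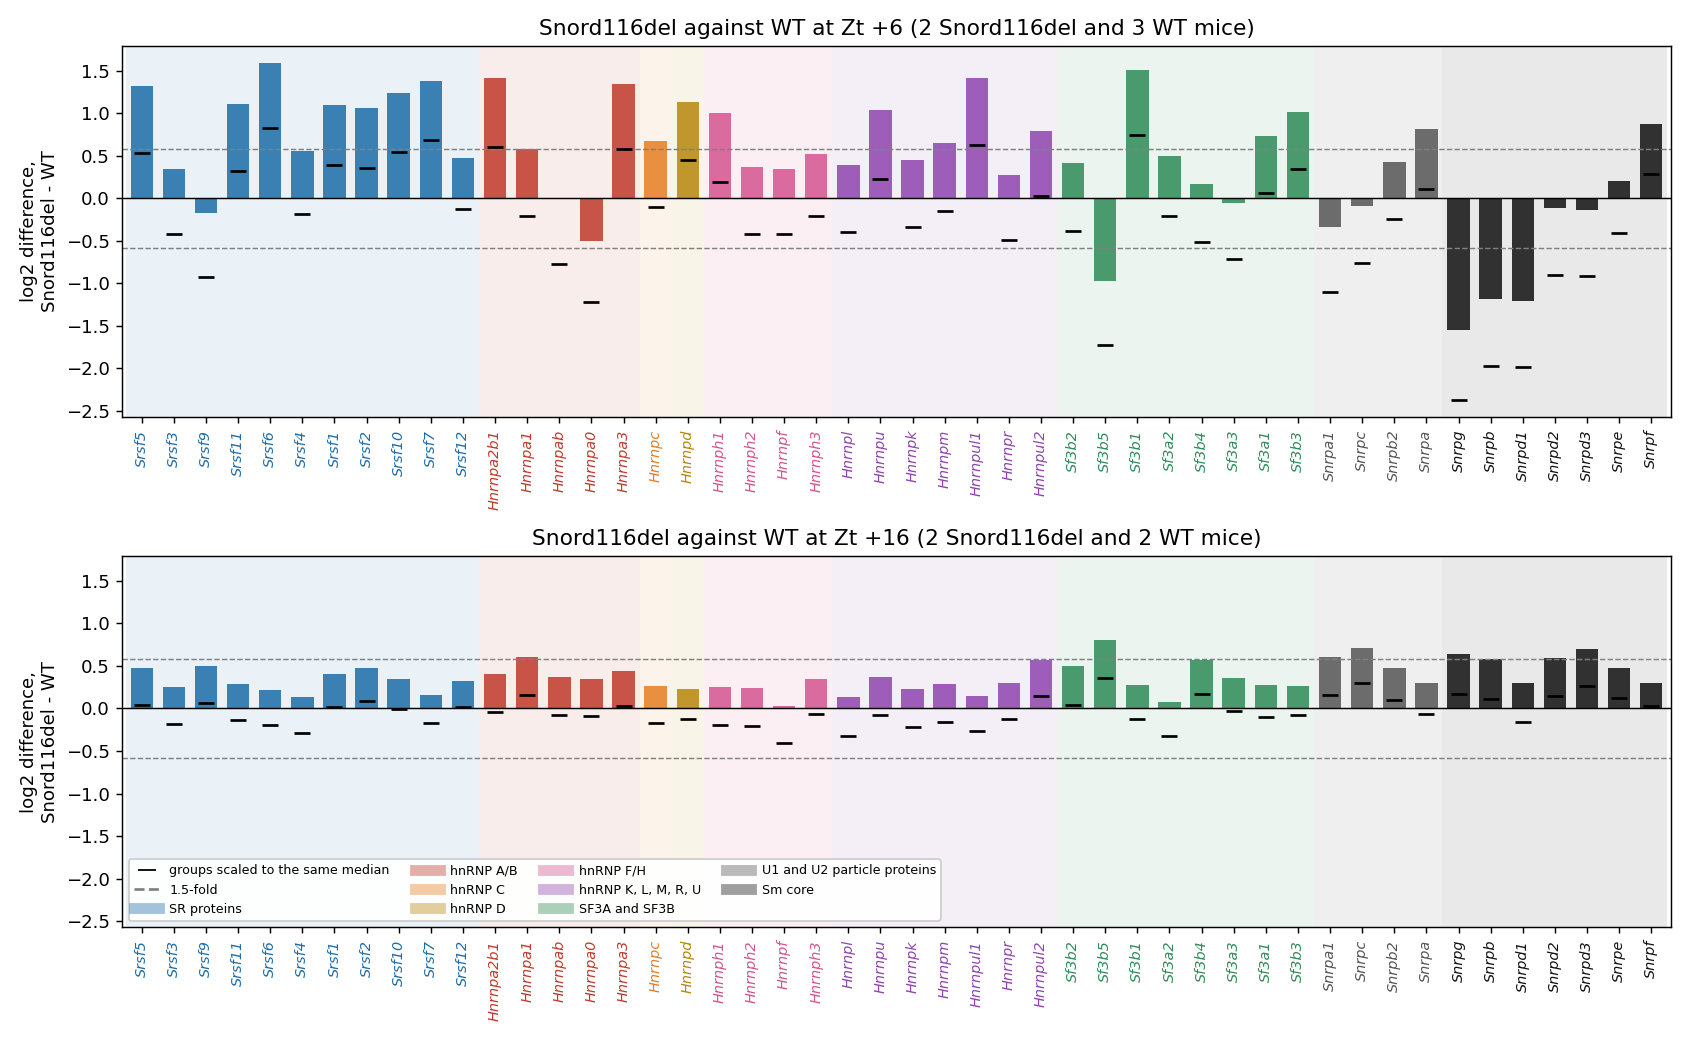
Difference between *Snord116del* and WT in log2(FPKM + 1) for each gene (bars, coloured by role) at Zt +6 (top) and Zt +16 (bottom), with the value after scaling the groups to the same median as a black dash and 1.5-fold as dashed lines. At Zt +6 the bars run from -1.55 to 1.59, and at Zt +16 all 48 stand above 0 and none exceeds 0.81.

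Among the SR proteins, *Srsf6* (SRp55) had 6.33 (WT) and 21.1 (*Snord116del*) FPKM at Zt +6 and 6.87 and 8.16 at Zt +16. The Zt +6 *Snord116del* group thus stood apart from 3 groups that lay close to each other, a difference of 1.59 at Zt +6 and of 0.22 at Zt +16. *Srsf5* (SRp40), the most abundant SR gene by its mean over groups, was also highest in that group, with 10.7 and 28.2 FPKM at Zt +6 and 10.2 and 14.5 at Zt +16. *Srsf7* (9G8) had 2.80 and 8.83 FPKM at Zt +6 and 2.20 and 2.58 at Zt +16. Its difference was 1.37 at Zt +6 and 0.16 at Zt +16. *Srsf10*, *Srsf1*, *Srsf11* and *Srsf2*, named after their values were seen, completed the 7 with differences of 1.24, 1.10, 1.10 and 1.06 at Zt +6. *Srsf3* (SRp20), a shuttling SR protein that also serves mRNA export, had 11.2 and 14.5 FPKM at Zt +6 and 13.7 and 16.6 at Zt +16. Its 4 values lay within a narrow band, and its difference of 0.35 at Zt +6 did not pass the fold rule. *Srsf9* was the 1 SR gene below 0 at Zt +6, at -0.18.

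*Hnrnpa2b1*, which encodes an RNA-binding protein that also carries mRNAs along dendrites, had the highest mean level among the hnRNPs. It had 25.1 (WT) and 68.8 (*Snord116del*) FPKM at Zt +6 and 20.1 and 26.9 at Zt +16. As with *Srsf6*, the *Snord116del* value at Zt +6 was alone in standing above the rest, with a difference of 1.42 from WT at that time. *Hnrnpa1*, its close relative and a classic repressor of exon inclusion, had 16.6 and 25.3 FPKM at Zt +6 and 18.4 and 28.5 at Zt +16. Its difference was 0.58 at Zt +6, just under the threshold, and 0.60 at Zt +16, just over it. *Hnrnpab* had the same level in both genotypes at Zt +6, 14.6 FPKM, and 21.1 and 27.6 at Zt +16. *Hnrnpc*, which binds uridine tracts in introns, had 9.19 and 15.2 FPKM at Zt +6 and 12.5 and 15.2 at Zt +16. Its difference of 0.67 at Zt +6 became -0.10 when the groups were scaled to the same median. *Hnrnpd* (AUF1), a binder of AU-rich elements, had 2.70 and 7.09 FPKM at Zt +6 and 2.56 and 3.18 at Zt +16, with a difference of 1.13 at Zt +6.

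In the F/H class, whose proteins bind runs of guanine, *Hnrnph1* had 25.7 and 52.4 FPKM at Zt +6 and 27.7 and 33.3 at Zt +16. It was the 1 member of the class past the fold rule, at 1.00, and became 0.19 on the scale of equal medians. Its X-linked paralog *Hnrnph2* had 14.3 and 18.8 FPKM at Zt +6 and 16.8 and 20.0 at Zt +16, a difference of 0.37 at Zt +6. In the K to U classes, *Hnrnpl* had the highest mean, with 20.4 and 27.1 FPKM at Zt +6 and 25.3 and 27.8 at Zt +16, and did not pass the rule in either comparison of genotypes. *Hnrnpul1* had the largest difference of its class. It had 10.7 and 30.2 FPKM at Zt +6 and 6.12 and 6.86 at Zt +16. It was thus lower at Zt +16 than at Zt +6 in both genotypes, by 0.72 in WT and by 1.99 in *Snord116del*. *Hnrnpr* had 11.1 and 13.6 FPKM at Zt +6 and 10.8 and 13.5 at Zt +16, a difference of 0.27 and 0.30.

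*Sf3b1*, the scaffold subunit that clamps the branch point helix, had 6.27 (WT) and 19.7 (*Snord116del*) FPKM at Zt +6 and 5.20 and 6.50 at Zt +16, a difference of 1.51 at Zt +6. The smallest subunit of the complex, *Sf3b5*, showed the opposite order. It had 18.5 and 8.90 FPKM at Zt +6 and 21.5 and 38.3 at Zt +16, so that the *Snord116del* group was the lowest of the 4 at Zt +6 and the highest at Zt +16. *Sf3b2*, the most abundant subunit by its mean, had 19.2 and 25.9 FPKM at Zt +6 and 22.6 and 32.3 at Zt +16, and passed the rule in neither comparison of genotypes. *Sf3a1* and *Sf3b3*, named after their values were seen, were the other subunits that were higher at Zt +6, by 0.73 and 1.02.

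The most negative differences at Zt +6 belonged to the Sm core. *Snrpg* had 189.9 (WT) and 64.0 (*Snord116del*) FPKM at Zt +6 and 365.5 and 569 at Zt +16. *Snrpd1*, the D1 protein of the ring, had 33.4 and 13.9 FPKM at Zt +6 and 58.9 and 72.8 at Zt +16. *Snrpb*, which encodes the B and B' proteins, had 37.3 and 15.8 FPKM at Zt +6 and 60.2 and 90.3 at Zt +16. In each of these 3 genes the *Snord116del* group at Zt +6 was the lowest and the *Snord116del* group at Zt +16 the highest. Their differences at Zt +6 were -1.55, -1.20 and -1.18, and at Zt +16 they were 0.64, 0.30 and 0.58. *Snrpd3*, whose protein is the partner of B in the ring, had 16.0 and 14.5 FPKM at Zt +6 and 14.3 and 23.8 at Zt +16. It passed the rule at Zt +16 only, by 0.70. *Snrpf* was the 1 member of the ring that was higher at Zt +6, by 0.88, from the lowest level of the set. Members of 1 ring thus differed in opposite directions in the same pair of groups as deposited. On the scale of equal medians no member of the ring passed the rule as higher, with *Snrpf* at 0.29 and *Snrpg* at -2.37.

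Among the U1 and U2 particle proteins, *Snrpa1*, a U2 protein, had 13.0 and 10.1 FPKM at Zt +6 and 20.7 and 32.2 at Zt +16, the same order as *Snrpb*. *Snrpa*, the A protein of U1, had 3.88 and 7.56 FPKM at Zt +6 and 2.83 and 3.70 at Zt +16, a difference of 0.81 at Zt +6. *Snrpc*, the C protein of U1, which helps U1 recognise the start of an intron, had 4.85 and 4.51 FPKM at Zt +6 and 5.77 and 10.1 at Zt +16, a difference of 0.71 at Zt +16. These A and C proteins belong to the same particle. Their differences at Zt +6 lay on opposite sides of 0, but that of *Snrpc*, -0.09, did not pass the fold rule. With the trend in transcript length taken out, *Snrpa* stood at 1.38 and *Snrpc* at 0.79.

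At Zt +16, 7 of the 48 genes were higher in *Snord116del* and none was lower, against 19% and 0.204% of all tested genes. The 7 were *Sf3b5*, *Snrpc*, *Snrpd3*, *Snrpg*, *Snrpa1*, *Hnrnpa1* and *Snrpd2*. All 48 differences were above 0, as were those of 9965 of the 10297 tested genes, and the median was 0.35 for both sets. No SR protein passed the rule. Scaled to the same median, none of the 48 passed it in either direction, with 1.22% and 0.515% of all tested genes, and 20 of the 48 stood above 0.

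Between the times, few of the splicing genes differed in WT cortex. At Zt +16 against Zt +6, 4 of the 48 genes were higher and 1 was lower, against 5.71% and 10.3% of all tested genes, and the median was 0.09. The 4 were *Snrpg* (0.94), *Snrpd1* (0.80), *Snrpb* (0.68) and *Snrpa1* (0.63), all proteins of snRNP particles, and the 1 was *Hnrnpul1*. Transcripts of these 4 are short, with 393, 837, 1161 and 1243 bases. With the trend in length taken out they stood at 0.52, 0.46, 0.41 and 0.38 and did not pass the rule. Scaled to the same median, 6 of the 48 were higher and 1 lower, with 10.8% and 9.48% of all tested genes. In *Snord116del* cortex 11 were higher and 15 lower, against 25% and 39.1% of all tested genes, with a median of -0.12. Scaled to the same median, 16 were higher and 8 lower, with 35% and 26.5% of all tested genes, and with the trend in length taken out 4 and 19, with 17.1% and 34.6%. *Snrpg*, *Snrpb*, *Snrpd1* and *Sf3b5* were the highest, at 3.13, 2.44, 2.31 and 1.99. *Hnrnpul1*, *Sf3b1* and *Srsf7* were the lowest, at -1.99, -1.46 and -1.46. Of the Sm core 5 of 7 were higher and 1 lower, and of the SR proteins 5 of 11 were lower and 1, *Srsf9*, higher.

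The difference at Zt +6 went with transcript length. Over the 48 genes, Spearman's rho between the Zt +6 difference and transcript length in the GENCODE annotation was 0.44, and over 10165 tested genes with a length it was 0.63. These are correlations across genes of the same group values, and genes are not independent replicates. At Zt +16 the signs turned, with -0.56 over the 48 and -0.39 over all. With the length of the longest transcript instead, rho was 0.60 and 0.63 at Zt +6 and -0.36 and -0.38 at Zt +16, so that the value over the 48 no longer exceeded that over all in size at Zt +16. For Zt +16 against Zt +6 in WT, rho with transcript length was -0.30 over the 48 and -0.49 over all. The Sm core had the shortest transcripts of the set, with a median of 613 bases, against 2566 for the SR proteins and 2722 for SF3A and SF3B. *Snrpg* has 393 bases, *Sf3b5* 733 and *Sf3b1* 6192. Among transcripts under 1000 bases, 2 of 9 splicing genes were higher and 3 lower at Zt +6, and over all tested genes of that length 11.7% were higher and 40.5% lower. At 4000 bases or more all 5 splicing genes were higher, as were 83.5% of all such genes.

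**Figure D3:**
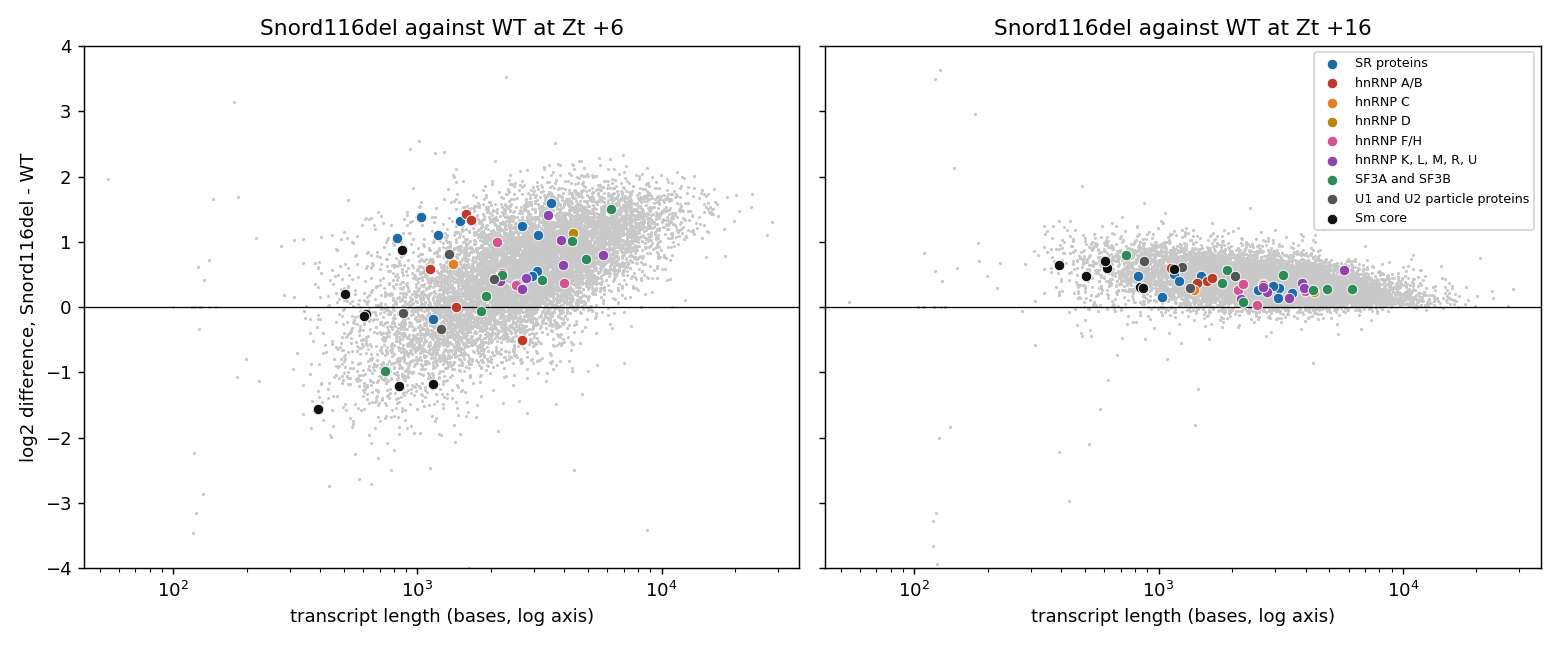
Difference between *Snord116del* and WT in log2(FPKM + 1) against transcript length in bases (log axis) for tested genes (grey) and the 48 splicing genes (coloured by role) at Zt +6 (left) and Zt +16 (right), with 8 and 9 genes outside the axis. The grey cloud climbs with length at Zt +6, with *Snrpg* near its lower left edge and *Sf3b1* at the upper right, and slopes slightly down at Zt +16.

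The splicing genes of middle length stood on either side of that trend. Among transcripts of 1000 to 2000 bases, 7 of 14 splicing genes were higher at Zt +6, against 21.2% of all tested genes of that length, with medians of 0.62 and 0.10. At 2000 to 3000 bases the order turned, with 2 of 12 higher against 42.5% and medians of 0.44 and 0.49. At 3000 to 4000 bases 5 of 8 were higher against 60.3%. When the trend with length was taken out around the median of all tested genes, which was kept, 26 of the 48 were higher and none lower at Zt +6, with 48.7% and 2.13% of all genes with a length. *Snrpg*, *Snrpb*, *Snrpd1* and *Sf3b5* then stood at -0.36, -0.49, -0.30 and -0.01 and no longer passed the rule. The other Sm core genes, *Snrpd2*, *Snrpd3*, *Snrpe* and *Snrpf*, stood at 0.94, 0.92, 1.34 and 1.76 and passed it as higher. The SR genes ran from 0.40 (*Srsf3*) to 2.15 (*Srsf7*). Whether RNA quality or library preparation differed between the groups was not tested.

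Several of these genes share sequence with copies elsewhere in the genome. For 14 of the 48, at least 50% of all 32-base windows of the transcript occur outside the gene in the mm9 genome, with 97.7% for *Hnrnpa3*, 93.9% for *Snrpg* and 87.8% for *Hnrnpa1*. How the authors' counting divided such reads is not given in the sources used here, and these levels are uncertain. For 13 genes, among them *Srsf6*, *Srsf1*, *Sf3b5*, *Snrpa1* and *Hnrnpu*, no window occurs elsewhere. Among the 25 genes with under 10% of windows elsewhere, 13 were higher and 1, *Sf3b5*, was lower at Zt +6, with a median of 0.65. This was near the background, as 49.3% of all tested genes were higher and 7.62% lower, with a median of 0.57. *Snrpb* has 11.0% of its windows elsewhere and *Snrpd1* 35.4%.

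The lists of other splicing genes were read in the same way. Of 115 tested genes in 7 further lists, 64 (55.7%) were higher and 7 (6.09%) lower at Zt +6, with a median of 0.68. These shares were near the 49.3% and 7.62% of all tested genes, whose median was 0.57. Of SR-related proteins and SR kinases 17 of 20 were higher and none lower. *Son*, a large nuclear speckle protein, had 6.70 (WT) and 23.5 (*Snord116del*) FPKM at Zt +6 and 3.25 and 3.85 at Zt +16. *Acin1* had the lowest difference of that list, 0.45. Of the Prp19 complex, helicases and catalytic step factors 15 of 24 were higher and none lower, from -0.39 for *Bcas2* to 1.91 for the helicase gene *Ddx17*. Of U2AF, U1 and U5 or tri-snRNP proteins 16 of 29 were higher and 3 lower, from *U2af1* (-1.19), the small subunit that reads the AG at the end of an intron, to *Luc7l3* (1.66).

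The Lsm proteins, which form rings like that of the Sm core, had 1 of 9 higher and 3 lower, with a median of -0.15. *Lsm7* had 103 (WT) and 39.7 (*Snord116del*) FPKM at Zt +6 and 193 and 212 at Zt +16, so that like *Snrpg* it was lowest in *Snord116del* at Zt +6. *Lsm11*, a part of the U7 particle, stood at 0.70. Of 12 other hnRNP-like proteins 7 were higher, from *Pcbp3* (-0.38) to *Pcbp2* (1.62). Of 10 tested genes of Sm ring assembly 3 were higher, from *Gemin7* (-0.38) to *Ddx20* (1.20). Of 11 genes of the exon junction and cap binding complexes 5 were higher and 1 lower, from *Magoh* (-1.28) to *Smg1* (1.73), which phosphorylates a decay factor that works with the junction complex. *Snrpg*, *Lsm7*, *Magoh* and *U2af1* have transcripts of 393, 468, 692 and 907 bases, and *Son*, *Smg1* and *Ddx17* have 8731, 15547 and 4761. At Zt +16, 10 of the 115 (8.70%) were higher and none lower, against 19% and 0.204% of all tested genes. At Zt +16 against Zt +6 in WT, 4 (3.48%) were higher and 13 (11.3%) lower, against 5.71% and 10.3%. In *Snord116del* 25 (21.7%) were higher and 50 (43.5%) lower, against 25% and 39.1%.

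Markers of cell types also differed between the groups. Their counts stand beside 49.3% of all tested genes that were higher at Zt +6. The 5 neuronal markers, present in every group, summed to 807 (WT) and 1481 (*Snord116del*) FPKM at Zt +6 and to 639 and 842 at Zt +16. Of these, 3 of 5 passed the rule as higher at Zt +6, *Syt1* (1.62), *Camk2a* (1.55) and *Rbfox3* (0.66). *Snap25* (0.29) and *Tubb3* (0.01) did not. All 4 astrocyte markers were higher at Zt +6, with sums of 30.0, 90.1, 13.5 and 17.3 FPKM in the same order. Oligodendrocyte markers (2 of 4 higher) summed to 383, 614, 645 and 926, microglial markers (3 of 4) to 17.6, 38.2, 16.0 and 25.0, endothelial markers (3 of 3 tested) to 4.23, 13.5, 1.83 and 2.17 and striatal markers (3 of 3 tested) to 13.5, 28.5, 12.8 and 23.1. Choroid plexus markers summed to 203, 185, 25.8 and 30.9, almost all of it *Ttr*, with 2 of the 4 under 1 FPKM in every group. The part of these shifts in the differences of the splicing genes was not tested.

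In the ChIRP-seq lists each library stands alone, and the WT *116HG* replicates differ in size, with 78033 peaks in replicate 1 and 11145 in replicate 2. A gene was counted as having a peak where 1 lay within 2 kb of it in mm9. Replicate 1 had a peak at all 48 splicing genes, against 93.6% of 10165 tested genes. There were 383 such peaks, a median of 7 per gene against 4 over tested genes, and per kb of exon a median of 2.04 against 1.31. *Sf3b1* had 26, *Hnrnpu* 25 and *Hnrnpul2* 21, and *Sf3b5* and *Snrpe* had 1 each. The number of peaks followed exon length over the 48 genes, with a rho of 0.58, and over tested genes, with 0.49. Per kb of exon the peaks also followed the FPKM of the gene in WT at Zt +6, with a rho of 0.41 over the 48 and 0.58 over tested genes.

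**Figure D4:**
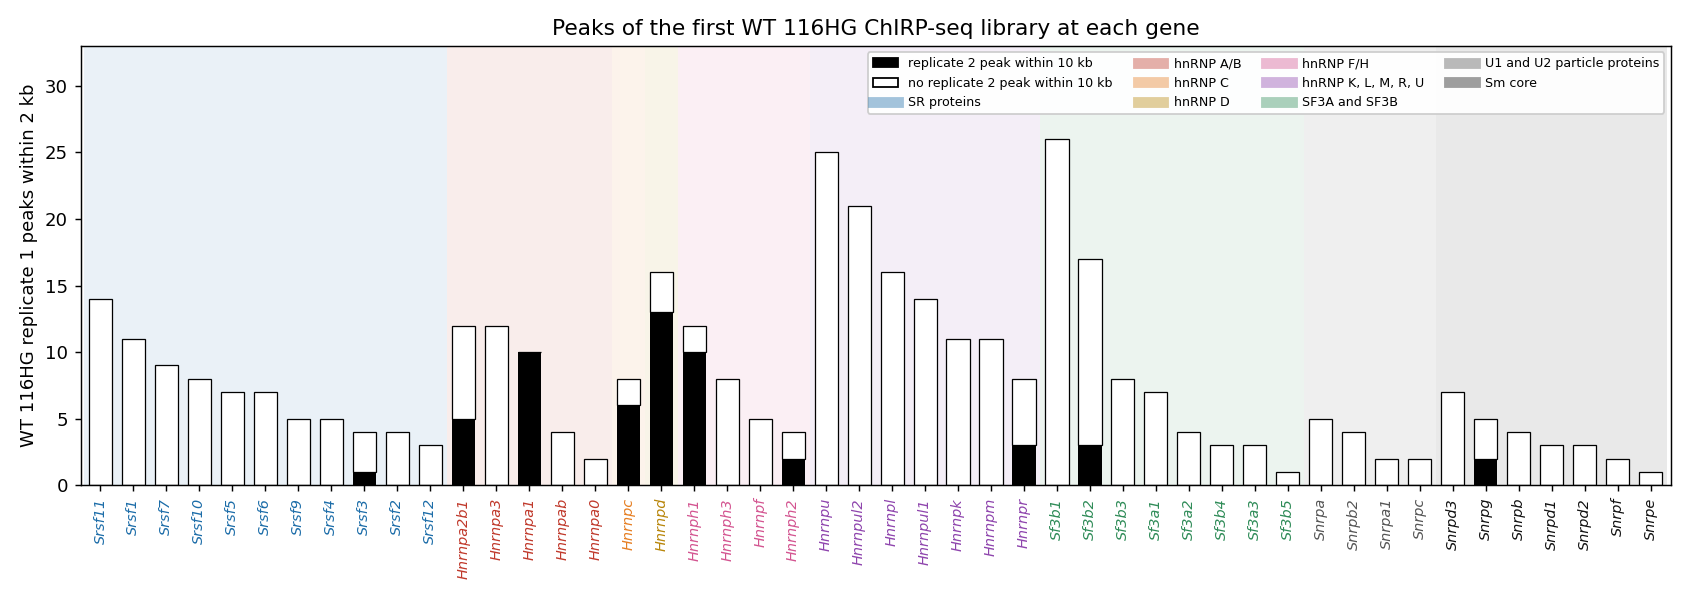
Number of WT *116HG* replicate 1 peaks within 2 kb of each gene, ordered by role and number, split into peaks with a replicate 2 peak within 10 kb (black) and those without (white). All 48 genes have at least 1 peak and 10 have a black part, which makes up the whole bar for *Hnrnpa1* only.

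The replicate 1 peaks lay on exons. By its middle base, 181 of the 383 peaks (47.3%) fell in coding exons, 128 (33.4%) in untranslated exons, 16 (4.18%) in exons of noncoding transcripts, 21 (5.48%) in introns and 37 (9.66%) in the flanks. Exons thus took 84.9% of the peaks at these genes and 77.6% of those at all tested genes, while introns took 5.48% and 14%. The highest folds over input were 338.6 at *Hnrnpa2b1*, 328 at *Hnrnph1*, 298 at *Hnrnpul2* and at *Hnrnpk*, and 287 at *Hnrnpm*, against a median of 61.6 for the 383 peaks and 55.3 for the whole list.

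Peaks of replicate 1 at 2 genes are shown as examples of the exon pattern. They come from short peaks in coding exons that touch no untranslated exon and have a middle found once in mm9. Among those with the highest folds, these were chosen because the exon fills them, so they do not show how common that is. Sequences are mm9, on the plus strand, with coding bases in capitals. Both genes lie on the minus strand, so the letters are the reverse complement of the mRNA.
*Hnrnpa2b1*, chr6:51416490-51416705, fold 189: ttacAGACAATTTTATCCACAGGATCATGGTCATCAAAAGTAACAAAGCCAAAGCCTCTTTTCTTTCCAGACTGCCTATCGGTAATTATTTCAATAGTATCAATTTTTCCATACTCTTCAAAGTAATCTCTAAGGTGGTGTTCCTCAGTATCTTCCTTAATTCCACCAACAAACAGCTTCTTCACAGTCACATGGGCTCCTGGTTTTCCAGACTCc
*Hnrnpu*, chr1:180260293-180260481, fold 159: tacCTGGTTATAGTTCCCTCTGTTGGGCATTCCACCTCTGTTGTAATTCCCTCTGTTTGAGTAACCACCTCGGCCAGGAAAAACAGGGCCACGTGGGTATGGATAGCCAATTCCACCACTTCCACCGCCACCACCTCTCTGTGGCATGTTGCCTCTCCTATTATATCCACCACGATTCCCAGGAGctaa
In each, the coding exon fills nearly all of the peak and the peak ends within a few bases of the exon's edges, with 211 of 216 bases coding at *Hnrnpa2b1* and 182 of 189 at *Hnrnpu*. A peak at *Hnrnpa2b1* with a higher fold, 239, had 120 of its 175 bases in the coding exon. Others there, with folds of 187, 162 and 150, had 123 of 297, 81 of 161 and 102 of 113.

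Replicate 2 had a peak at 4 of the 48 genes, *Hnrnpa1*, *Hnrnpc*, *Hnrnpd* and *Hnrnpr*, which is 8.33% against 17.5% of tested genes. Each had 1, and only that of *Hnrnpr* lay inside the gene, in an intron. A replicate 1 peak was called replicated where a replicate 2 peak lay within 10 kb. By that rule 10 of the 48 genes (20.8%) had a replicated peak, against 18% of tested genes, and by replicate 2 peaks with a replicate 1 peak as near, the same 4 had one, against 12.6%. The 10 were *Hnrnpd* with 13 such peaks, *Hnrnpa1* and *Hnrnph1* with 10 each, *Hnrnpc* with 6, *Hnrnpa2b1* with 5, *Hnrnpr* and *Sf3b2* with 3 each, *Hnrnph2* and *Snrpg* with 2 each and *Srsf3* with 1. With 50 kb there were 25, with 2 kb 3, and with direct overlap 1, *Hnrnpa1*. That overlapping pair lies in the flank of the gene. The middle 32 bases occur 9 times in mm9 for its replicate 1 peak and 10 times for its replicate 2 peak.

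The nearest replicate 2 partner overlapped the replicate 1 peak at *Hnrnpa1* and lay 525 to 7015 bases away at the other 9 genes, outside the gene at 8 of them. Most of the replicate 2 partners held a long run of a short repeated unit. Those at *Hnrnpa1* and *Hnrnph2* did not, with longest runs of 8 and 11 bases. Partners at 5 of the other genes are printed from mm9, plus strand, with the longest run of a repeated unit of 1 to 4 bases in capitals.
*Hnrnpr*, intron, chr4:135876987-135877046: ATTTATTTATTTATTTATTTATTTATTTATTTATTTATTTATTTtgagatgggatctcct
*Hnrnpa2b1*, intron of the neighbour *Nfe2l3*, chr6:51405695-51405787: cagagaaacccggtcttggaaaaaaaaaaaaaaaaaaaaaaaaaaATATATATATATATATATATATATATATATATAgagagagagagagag
*Sf3b2*, intron of the neighbour *Gal3st3*, chr19:5299759-5299830: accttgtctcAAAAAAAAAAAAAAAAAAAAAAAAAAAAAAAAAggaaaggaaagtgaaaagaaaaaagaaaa
*Hnrnph1*, no annotated gene, chr11:50187373-50187465: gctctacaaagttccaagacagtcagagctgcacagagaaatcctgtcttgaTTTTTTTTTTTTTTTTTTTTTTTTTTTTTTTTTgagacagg
*Snrpg*, no annotated gene, chr6:86335907-86335974: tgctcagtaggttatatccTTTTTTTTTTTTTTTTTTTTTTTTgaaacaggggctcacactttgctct
The capitals cover 44 of 60 bases at *Hnrnpr*, 33 of 93 at *Hnrnpa2b1*, 33 of 72 at *Sf3b2*, 33 of 93 at *Hnrnph1* and 24 of 68 at *Snrpg*. None of the 5 lies in an exon. The partners at *Hnrnpc* (35 of 72 bases) and *Hnrnpd* (34 of 59) were of the same kind.

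A run of at least 15 such bases was in 8 of the 10 nearest replicate 2 partners and in 1 of the 10 replicate 1 peaks they were paired with. Over the whole lists it was in 48.9% of replicate 2 peaks and 16% of replicate 1 peaks, and in 4.44% of the 383 replicate 1 peaks at splicing genes. The control lists had it in 12.1% (WT NSC), 7.4% (*Snord116del* *116HG*) and 7.84% (*Snord116del* NSC). Of all replicate 2 peaks at tested genes 86.4% lay in introns. Such runs occur at many places in a genome, and how the authors treated reads with several matches is not given in the sources used here. Of the 383 replicate 1 peaks 67 (17.5%) had a middle stretch of 32 bases with a further copy in mm9, as had 3 of the 4 replicate 2 peaks.

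The control libraries came next. WT NSC and *Snord116del* *116HG* had a peak at none of the 48, against 2.53% and 2.86% of tested genes, and *Snord116del* NSC at 1, against 10.6%. These lists are shorter than that of replicate 1, with 3648, 1280 and 3418 peaks. The 1 was *Hnrnpul2*, in a coding exon at chr19:8895048-8895370 with a fold of 21.0, and 2 replicate 1 peaks shared 212 bases with it.

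The differences between genotypes were set side by side for genes with and without a replicated peak, with no test. At Zt +6, 4 of the 10 with one were higher in *Snord116del* and 1 was lower, with a median of 0.50. Of the other 38, 17 were higher and 3 lower, with a median of 0.51. At Zt +16, 2 of 10 and 5 of 38 were higher, with medians of 0.28 and 0.35.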

How the data were processed

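RNA-seq of cortex and ChIRP-seq of brain were analysed as deposited. Per the labels, reads were aligned to mm9, with CASAVA 1.8.0, Bowtie2 2.0.0, MACS 1.4.2, TopHat2 2.0.5 and Cuffdiff 2.0.2 named in the submitters' processing notes. The authors deposited 1 Cuffdiff FPKM per group and gene. They called ChIRP-seq peaks in each library and deposited positions and, except for WT *116HG* replicate 2, the fold over input, a ratio. The WT input library was not analysed here. The deposited log2 fold changes, q-values and significance calls compare the genotypes at each time and were not used. The table has no values per mouse.

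The designed fit for values per mouse could not be made, so the fold rule was used, with a pseudocount of 1 FPKM. Splicing genes, the lists of other splicing genes and the marker lists were chosen with earlier results of these data known. Named genes are, per role, the one with the highest mean and the one with the largest difference at Zt +6, in each comparison the 3 highest and 3 lowest past the fold rule, all with a replicated peak, and in each other list the highest and lowest. Others were named after their values were seen.

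Genes were matched by symbol to GENCODE M1 on NCBIM37, the assembly of mm9 (21853 of 23235). Transcript length is that of the transcript with the longest coding sequence, and its trend was taken out by lowess with a span of 0.3. Peak starts were read as 0-based. FPKM holds no counts, so no counting error was given (read totals per mouse are in the study's methods), and single libraries give no spread. The steps ran in Python 3.11.15 (scipy 1.17.1, numpy 2.4.6, matplotlib 3.10.9, pandas 2.3.3, statsmodels 0.14.6), and were tested on simulated data.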

Additional observations from a re-analysis of the deposited data

Results flagged for a closer look

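Of the 48 splicing genes, 2 passed the fold rule in opposite directions at the 2 times, which drew attention to them. *Sf3b5* stood at -0.98 in *Snord116del* against WT at Zt +6 and at 0.81 at Zt +16. *Snrpg* stood at -1.55 at Zt +6 and at 0.64 at Zt +16. The difference between the times was not tested, since each group has 1 value per gene. Over all tested genes, 473 of 10297 (4.59%) did the same, against 4.17% of the 48. With the trend in transcript length taken out, *Sf3b5* stood at -0.01 and 0.57 and *Snrpg* at -0.36 and 0.31, so that neither passed the rule at either time.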

How the results depend on the processing

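No paired analysis was possible because the table has 1 value per group, and for the same reason no mouse could be left out. Of the alternatives to the 25 splicing genes past the fold rule at Zt +6, those other than the scale of the groups kept the direction of the median, and the count of genes past the rule stayed within 1.5 times under every alternative run except those given here. Scaled to the same median, the median of the 48 turned to -0.21 at Zt +6, to -0.063 at Zt +16 and to 0.34 for Zt +16 against Zt +6 in *Snord116del*, and quantile normalization gave -0.085 at Zt +16. At Zt +6 equal medians changed the sign of 18 of the 48 genes, and among those past the rule on either scale it turned *Hnrnpab* to -0.77, *Hnrnpc* to -0.10 and *Hnrnpm* to -0.15. Taking out the trend in length changed the sign of 6, and with the same limit turned *Snrpc*, *Snrpd2* and *Snrpd3* to 0.79, 0.94 and 0.92 at Zt +6. For Zt +16 against Zt +6 in *Snord116del* it changed 13 and, with that limit, turned *Hnrnpa1*, *Hnrnpc*, *Snrpc*, *Snrpd2*, *Snrpd3*, *Snrpe* and *Srsf9* to -0.98, -0.86, -0.40, -0.97, -1.01, -1.62 and -0.029.

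At Zt +16 the count past the rule, 7 as deposited, was 0 with equal medians, quantile normalization or a fold of 2. It was 1 with the length trend taken out, *Hnrnpul2* (0.66), which was not among the 7. The count was 2 with the length of the longest transcript, a choice made after seeing the data. For Zt +16 against Zt +6 in WT, the count of 5 became 2 with quantile normalization. There it was 1 and 2 with the 2 length trends and 0 with a fold of 2. In *Snord116del* a fold of 2 left 16 of 26. Genes with a replicated peak numbered 10 with a distance of 10 kb, 1 with direct overlap, 3 with 2 kb, 25 with 50 kb and 4 by replicated peaks of replicate 2. Leaving out a replicate gave 4 to 48. Genes with a replicate 2 peak numbered 4, with 1 where the peak had to lie inside the gene and 10 within 10 kb. The causes were not tested.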
